A study of Mus musculus with 6 samples.

Results

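The genes described here are 10 genes of the Hippo pathway's transcriptional arm in wild-type B16 cells, a mouse melanoma line. They are Yap1 and Wwtr1, which encode the coactivators YAP and TAZ, the transcription factor genes Tead1, Tead2, Tead3 and Tead4, and the target genes Ccn1 (also Cyr61), Ccn2 (also Ctgf), Amotl2 and Lats2. They were chosen by symbol from 21887 protein-coding RefSeq genes of the mouse build GRCm38, and all 10 matched. The series labels 6 CUT&Tag libraries with 3 antibodies. In this assay an antibody guides a transposase, which cuts and tags the DNA beside the antibody's target. Used here are the peak lists of 2 libraries, both from cells of wild-type genotype grown in serum. One was made for trimethylated lysine 4 of histone H3 (H3K4me3, a mark of active promoters) and the other for p300, a histone acetyltransferase found at active enhancers and promoters. The 4 H3K9me3 libraries, titled wild-type, TdgKO, Trp53KO and TdgTrp53DKO, were not analysed here, so no genotype was compared. Each antibody has 1 library, so nothing could be checked against a replicate, and p-values were not computed.

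In the Hippo pathway the kinases LATS1 and LATS2 phosphorylate YAP and TAZ and keep them out of the nucleus. Unphosphorylated YAP and TAZ enter the nucleus and bind TEAD proteins, which supply the DNA contact and recognise a short sequence. Ccn1 and Ccn2 encode secreted matrix-associated proteins, while Amotl2 and Lats2 encode inhibitors of YAP, so that the pathway feeds back on itself. In melanoma, TEAD factors are known as regulators of the dedifferentiated, invasive cell state.

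On the nuclear chromosomes 27019 H3K4me3 peaks and 6512 p300 peaks were listed. Read totals are unknown, and the whole number of reads covering each summit was recovered from the deposited fold and p-value, with a median of 80 for H3K4me3 and 39 for p300. The smallest listed summits held 15 and 14 reads, and weaker sites were not detectable. The p-value also depends on the background, so on a high background sites with more reads could be missed. Intervals cover counting error only. Of 7 melanocyte lineage genes, 6 had H3K4me3 at an end (Mlana did not), beside 50.5% of all protein-coding genes. Of 11 marker genes of epithelium, leukocytes, endothelium and hepatocytes 0 did, among them Epcam, Ptprc and Alb. However, 2 of the 11 (18.2%), Cdh1 and Pecam1, had it inside the gene, beside 58.9% of all genes in the gene or within 1 kb. The same 2 genes also had p300 in the gene or within 1 kb, beside 20% of all genes.

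Starts and promoter sequence were listed for 7 of the 10 genes in the RefSeq table of GRCm38.p6, each as a window of 300 bases (250 before the start, 50 after). The 6-base core recognised by TEAD factors, GGAATG or its reverse complement CATTCC, was in a window of 6 of the 7 genes, and Tead2 was the exception. Over all 17492 protein-coding genes with a window it was in 15.5%, and over the 8964 of these with H3K4me3 at a gene end in 13.6%. The promoters of Yap1 and Wwtr1 and of the targets Ccn1 and Amotl2 are shown, as the coactivator and target genes with a match in the 250 bases before their start. Tead3 also had matches there, and they are given by their flanks in the next paragraph. They read 5′ to 3′ on the gene's strand with the match in capitals.
Yap1, chr9:8004597-8004846, minus strand: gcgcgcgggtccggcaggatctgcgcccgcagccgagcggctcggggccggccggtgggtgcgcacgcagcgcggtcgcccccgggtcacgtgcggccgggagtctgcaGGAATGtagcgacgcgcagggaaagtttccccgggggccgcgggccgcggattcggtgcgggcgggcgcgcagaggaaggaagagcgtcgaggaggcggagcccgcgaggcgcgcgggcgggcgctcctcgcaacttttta
Wwtr1, chr3:57575911-57576160, minus strand: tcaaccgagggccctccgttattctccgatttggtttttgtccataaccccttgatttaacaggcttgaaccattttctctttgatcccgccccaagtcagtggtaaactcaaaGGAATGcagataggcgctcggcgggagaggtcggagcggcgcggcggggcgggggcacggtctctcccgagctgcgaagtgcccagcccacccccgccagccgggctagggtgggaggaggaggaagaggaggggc
Ccn1, chr3:145649986-145650235, minus strand: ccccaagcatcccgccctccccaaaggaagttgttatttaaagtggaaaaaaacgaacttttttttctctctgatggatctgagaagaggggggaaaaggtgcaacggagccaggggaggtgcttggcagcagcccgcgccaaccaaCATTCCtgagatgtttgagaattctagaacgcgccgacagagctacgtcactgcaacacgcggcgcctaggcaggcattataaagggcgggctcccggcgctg
Amotl2, chr9:102717554-102717803, plus strand: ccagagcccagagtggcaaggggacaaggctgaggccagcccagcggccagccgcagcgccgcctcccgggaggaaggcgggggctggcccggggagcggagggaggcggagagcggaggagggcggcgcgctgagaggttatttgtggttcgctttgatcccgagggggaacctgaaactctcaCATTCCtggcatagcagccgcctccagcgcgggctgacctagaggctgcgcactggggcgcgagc

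The matches began 141 bases before the start of Yap1, 136 before the first listed start of Wwtr1, 103 before that of Ccn1 and 65 before that of Amotl2. Lats2 had its match at base 5 after the start, and Tead3, with 3 listed starts, had 4 matches, of which 2 lay 9 bases apart. Their flanks are listed here as read on the gene's strand, and what the flanks share was not counted. In lines with CATTCC the core is on the other strand, so left and right flanks are swapped against the GGAATG lines.
Yap1: ctgcaGGAATGtagcg
Wwtr1: tcaaaGGAATGcagat
Lats2: cccgtGGAATGccaac
Tead3, first start: agcgaGGAATGgggtg
Tead3, inner start, upper match: gggctCATTCCgtaca
Tead3, inner start, middle match: ccgtaCATTCCggcca
Tead3, inner start, lower match: cccggGGAATGcaact
Ccn1: accaaCATTCCtgaga
Amotl2: tctcaCATTCCtggca
Of these 9 distinct matches, 7 lay wholly inside an H3K4me3 peak, 4 of them in Tead3, and 1, in Amotl2, lay wholly inside a p300 peak as well. The windows with these 7 had 292 to 300 of their 300 bases in H3K4me3 peaks, so nearly any motif there would lie inside. The Ccn1 window had 149 such bases and the first Lats2 window 59. Only the Amotl2 window met a p300 peak, over 274 bases. The Ccn1 match crossed the edge of the H3K4me3 peak, with part of its bases inside, and the Lats2 match lay on the other side of the start from its peak. A match is a run of letters in these windows and is not a measured binding site. Windows of 1 gene can overlap, and with the first listed start alone the counts were 6 of 7 members and 13.4% of genes.

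The other 3 motifs searched in the same windows were found at other frequencies. The AP-1 motif TGANTCA, where N is any base, was in none of them, in 8.12% of all genes and in 5.23% of those with H3K4me3 at an end. The E-box CACGTG was in Yap1 and Lats2, in 8.91% of all genes and in 11.6% of those with H3K4me3 at an end. The GC box GGGCGG or CCGCCC, a motif of GC-rich promoters, was in all 7 against 49.2% of genes, and against 70% of those with H3K4me3 at an end. The member windows had a GC content from 42.7% to 75.3%, where the median over all windows was 56.3%. All motifs were sought on both strands, and a match of one cannot be a match of another, although their edges can overlap.

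**Figure D1:**
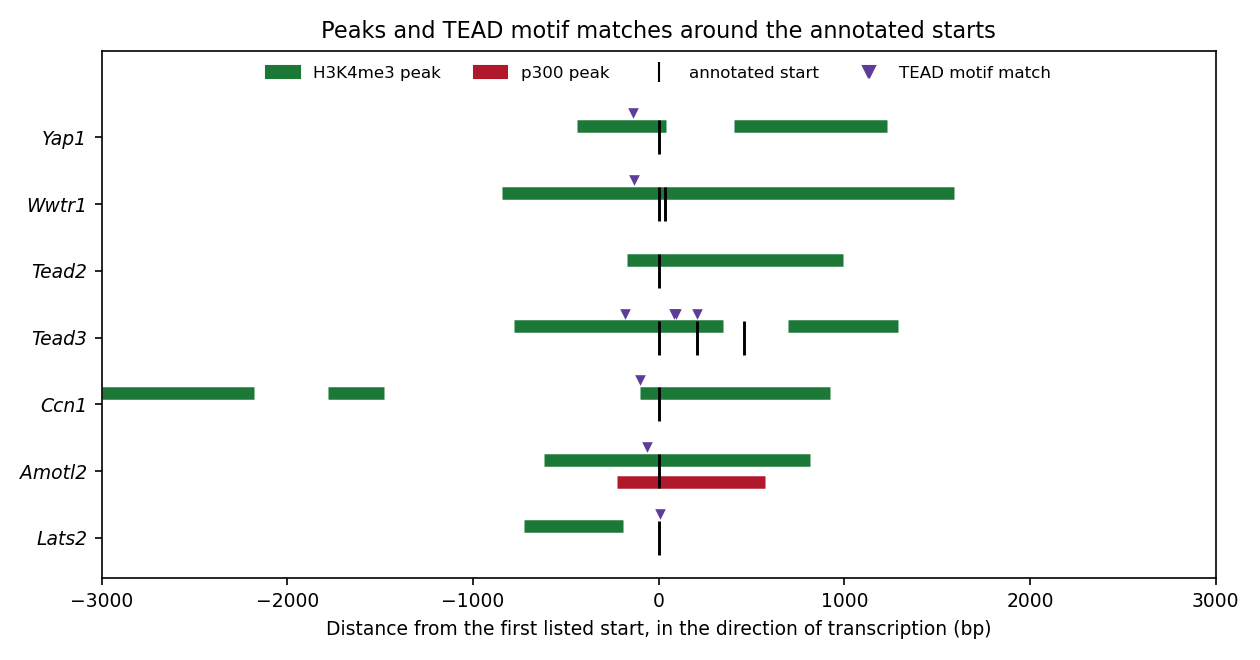
Peaks and TEAD motif matches within 3 kb of the first listed start of the 7 genes with a listed start. The x axis is the distance in bp in the direction of transcription, green bars are H3K4me3 peaks, red bars p300 peaks, black ticks annotated starts and purple triangles the matches. Amotl2 alone has a p300 peak over its start, and the Lats2 peak stops short of its start.

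All 10 genes had an H3K4me3 peak within 1 kb of an annotated gene end, where 50.5% of protein-coding genes did. Most of these peaks were of modest enrichment. The authors' fold enrichment, the summit over a background, had a median of 5.36 over the 10 genes, using the highest-fold peak of each. The same median over the 11045 genes with H3K4me3 at an end was 7.28, and 8 of the 10 members were below it. Among peaks at or above the list's median fold, 3 of the 10 genes still had a peak at an end, beside 34.4% of all genes. Among peaks at or above the median −log10 q the count was 7 of 10 beside 42.3%. The members' summits held a median of 118 reads against 132, and their background a median of 20.2 reads against 16.7, with 7 of the 10 above the latter. The part of the background in the low folds was not tested.

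**Figure D2:**
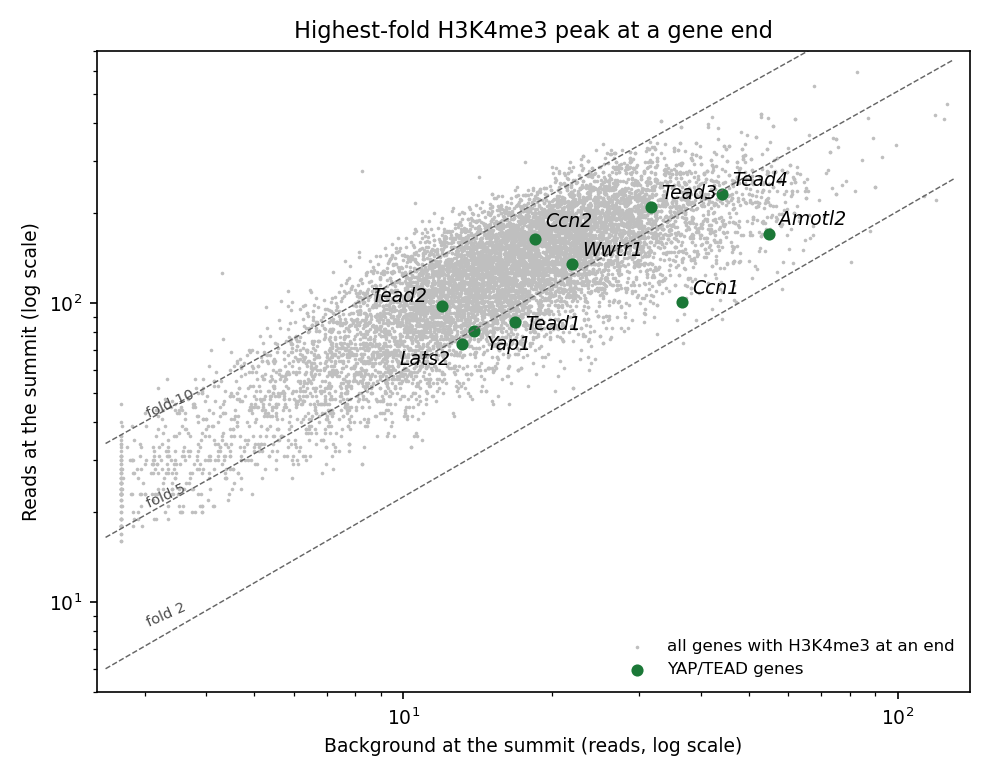
Reads at the summit (y, log scale) against background at the summit (x, log scale) for the highest-fold H3K4me3 peak at an end of each gene. Grey points are all 11045 genes with such a peak, green points the 10 YAP/TEAD genes, and dashed lines folds of 2, 5 and 10. Ccn1 and Amotl2 lie at the lower right edge of the grey points, with folds of 2.71 and 3.07.

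The coactivator genes had H3K4me3 at their starts and no p300 peak in the gene. Yap1 (chromosome 9, 7931999 to 8004638) had 2 H3K4me3 peaks around its start. The peak from 8003368 to 8004190 had a fold of 5.49 and 81 reads over a background of 13.9, and the peak from 8004555 to 8005034 a fold of 3.13 and 45 reads. The annotated start, at 8004596, lay just inside the edge of the latter, upstream peak. A weaker H3K4me3 peak of 29 reads lay inside the gene.

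Wwtr1 (chromosome 3, 57455644 to 57575910) had a single H3K4me3 peak over its start, from 57574319 to 57576755. At 2437 bp it was wider than 99.04% of the highest-fold end peaks of all genes, and held 135 reads with a fold of 5.93. The other H3K4me3 peak in the gene, of 22 reads, was among the weakest of the list by −log10 q. The nearest p300 peak to Wwtr1 was 151076 bp away.

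A strong p300 peak without H3K4me3 lay on the far side of Yap1 from its start. It ran from 7907397 to 7908066, 23933 bp below the gene, with 72 reads over a background of 6.58 and a fold of 9.64. This fold had a percentile of 97.1 in the p300 list, and by −log10 q the peak was number 622 of 6512 and number 53 of the 944 p300 peaks without H3K4me3. No H3K4me3 peak came within 34170 bp of it. Yap1 was the nearest annotated gene of any kind, followed by Birc3 at 34192 bp and Birc2 at 70266 bp, which encode inhibitor of apoptosis proteins. Nearness does not show which gene, if any, the region acts on.

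The 4 Tead genes differed among themselves in how many peaks they held and where p300 lay. Tead2, the gene with 1 H3K4me3 peak, and Tead3 had no p300 in the gene, while Tead1 and Tead4 had it at an end and inside.

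Tead1 (chromosome 7, 112679356 to 112906784) is a gene of 227429 bp and met 10 H3K4me3 peaks. Of 2429 protein-coding genes of at least 100 kb, 2.51% met at least as many. The H3K4me3 peak at its lower end, from 112678410 to 112679171, held 87 reads with a fold of 4.94, fewer than the peak inside the gene from 112697062 to 112697933, with 106 reads and a fold of 9.70. Outside the gene and 22670 bp below it, a peak from 112656050 to 112656686 had the highest fold of all H3K4me3 peaks near the 10 genes, 11.04. The H3K4me3 signal of Tead1 was thus spread over many sites, and the strongest was not at a gene end. Several of the peaks inside the gene were weak. The weakest, from 112876654 to 112876952, held 19 reads and had a percentile of 0.013 in the list by −log10 q.

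Both p300 peaks of Tead1 were weak. The one at its lower end, from 112678378 to 112678897, held 19 reads over a background of 3.47 and shared 488 of its 520 bp with H3K4me3. The other, from 112806980 to 112807380, held 22 reads and shared 17 bp with an H3K4me3 peak. By −log10 q their percentiles in the p300 list were 1.3 and 10.0, so both were close to the weakest peaks listed.

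Tead2 (chromosome 7, 45215792 to 45233468) had an H3K4me3 peak from 45215621 to 45216786 across its start, with 98 reads and a fold of 7.61. It and Ccn2 were the members above the median fold of marked genes. The nearest p300 peak was 60698 bp away.

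Tead3 (chromosome 17, 28331671 to 28350805) had 210 reads at the summit of the H3K4me3 peak over its first 2 starts, from 28350459 to 28351586, with a background of 31.7 and a fold of 6.45. This peak also reaches the end of Tulp1, whose annotated span lies beside that start, and the lists cannot tell which gene it belongs to. A second peak from 28349517 to 28350109 held 82 reads with a fold of 2.46. The 2 p300 peaks near Tead3 lay at the ends of other genes. One, of 58 reads, was at Fance, a Fanconi anaemia repair gene, and one, of 78 reads, was beside Rpl10a, which encodes a ribosomal protein. Both were covered by H3K4me3 over their whole length.

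Tead4 (chromosome 6, 128227143 to 128300813) carried the strongest p300 peak of the 10 genes by reads. It lay inside the gene, from 128281894 to 128282731, with 144 reads over a background of 18.9 and a fold of 7.29, and was number 254 of the p300 list by −log10 q. The H3K4me3 peak within it, from 128282161 to 128282605, was narrower, with 86 reads and a fold of 3.90. In percentiles by −log10 q, each within its own list, p300 stood at 96.1 there and H3K4me3 at 37.4.

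At the upper end of Tead4 this order was turned. The H3K4me3 peak from 128299500 to 128301495 held 232 reads over a background of 44.1 and had a percentile of 86.9 in its list. The p300 peak inside it, from 128299987 to 128301138, held 45 reads over 10.3, with a fold of 4.08 and a percentile of 34.3. Below the gene by 25700 bp, an H3K4me3 peak from 128200044 to 128201443 was number 91 of 27019 by −log10 q, with 317 reads and a fold of 9.88. It contained a p300 peak of 44 reads and fold 5.81. No protein-coding gene end came within 1 kb of this pair, and the nearest annotation was the pseudogene Gm4691, 525 bp from the H3K4me3 peak.

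**Figure D3:**
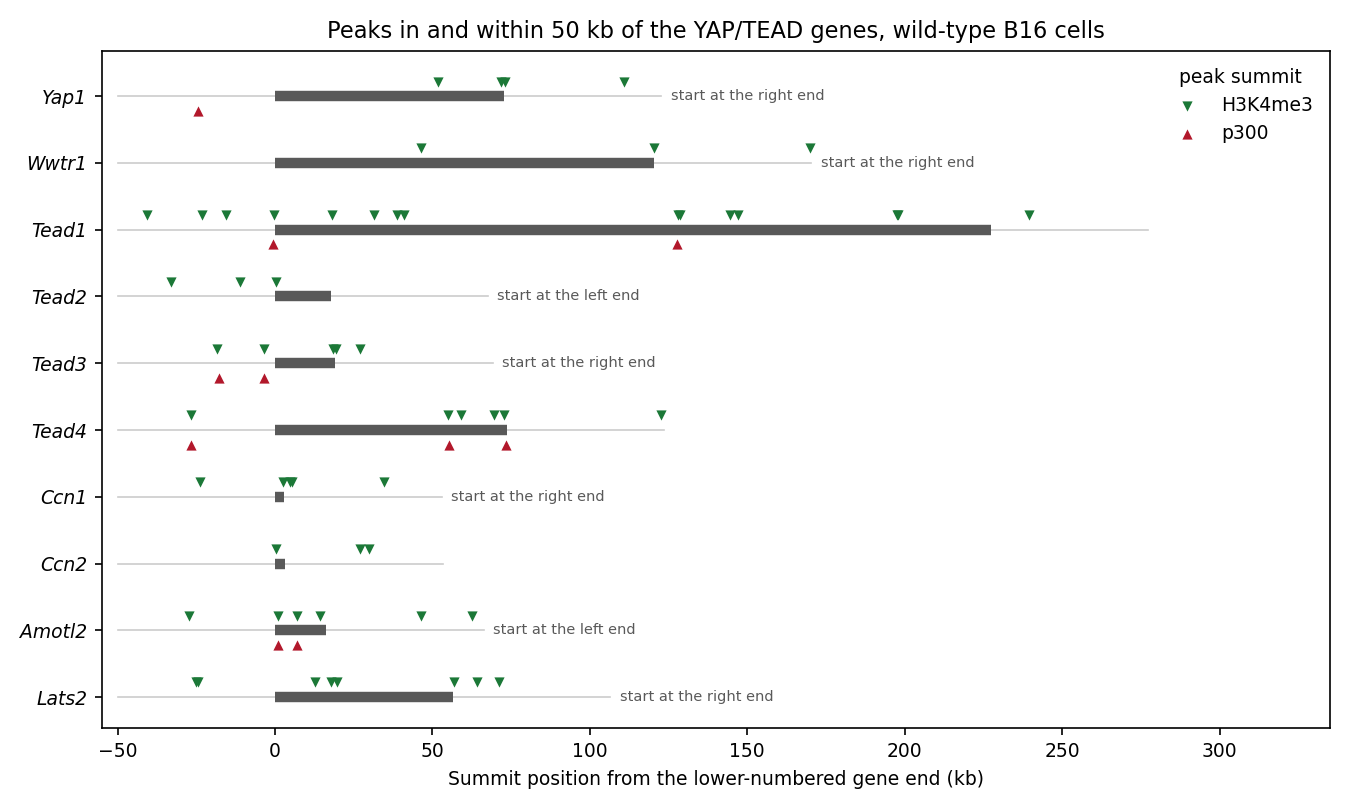
Summits of all H3K4me3 peaks (green, pointing down) and p300 peaks (red, pointing up) in and within 50 kb of the 10 genes. The x axis is the distance in kb from the lower-numbered gene end, and dark bars are the genes. Markers have 1 size whatever the peak's width. Tead1 has 15 H3K4me3 peaks in view, and Wwtr1, Tead2, Ccn1, Ccn2 and Lats2 have no p300 peak.

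The secreted targets had H3K4me3 and no p300 peak within 50 kb. Ccn2 (chromosome 10, 24595442 to 24598683) had the highest fold at an end among the 10 genes, 8.48, in a peak from 24595349 to 24596872 with 164 reads over a background of 18.5. This peak also overlaps the annotated noncoding gene Gm15270, and the lists cannot tell which gene it belongs to. The nearest p300 peak to Ccn2 was 156100 bp away.

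Ccn1 (chromosome 3, 145646971 to 145649985) had the lowest fold when each gene is taken by its highest-fold end peak, 2.71, with 101 reads over a background of 36.7 in a peak from 145649060 to 145650084. Among the highest-fold end peaks of all genes this fold had a percentile of 0.367 and the background one of 93.8. Upstream of its start 2 more H3K4me3 peaks followed, from 145651465 to 145651764 and from 145652166 to 145653703, with 100 and 96 reads and folds of 2.67 and 2.55. Both lie in the annotated noncoding gene Gm17501, and the end peak of Ccn1 reaches the edge of that gene as well. Read numbers at the 3 summits were thus nearly equal. Ccn1 was the member farthest from a p300 peak, at 460556 bp.

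The inhibitor genes Amotl2 and Lats2 differed in p300. Amotl2 (chromosome 9, 102717091 to 102733418) had 3 H3K4me3 peaks in the gene, of 171, 252 and 93 reads from its start onward, on backgrounds of 55.0, 64.8 and 26.3 reads. Their folds were 3.07, 3.84 and 3.44, all low in the list, and the second background had a percentile of 99.5. Its 2 p300 peaks lay wholly within the first and second of these. The p300 peak from 102717580 to 102718377, with its summit 111 bp from the start, held 41 reads over 9.11 and a fold of 4.15. The one from 102723652 to 102724241 held 74 reads over 15.8 and a fold of 4.47. In each list the internal site of Amotl2 that holds both marks had more reads than the start. The third H3K4me3 peak, of 93 reads and without p300, had fewer.

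Lats2 (chromosome 14, 57689662 to 57746212) had its end peak outside the gene, from 57746315 to 57746851, 103 bp beyond the annotated end and upstream of the start. It held 73 reads, the fewest when each of the 10 genes is taken by its highest-fold end peak, with a fold of 5.23. It lies within the annotated span of the protein-coding gene Gm52140, which overlaps Lats2, and the lists cannot tell which gene it belongs to. Of the second listed start, at 57734418, no H3K4me3 summit lay nearer than 12036 bp. Inside the gene 3 narrow peaks held 40, 48 and 39 reads. The nearest p300 peak lay 51465 bp away, just past the 50 kb limit, and Tead2 was the next member outside it.

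Counted over the 10 genes, p300 was at an end of 3 (Tead1, Tead4 and Amotl2), where 13.5% of protein-coding genes had it, or 26.5% of those with H3K4me3 at an end. None of the 3 peaks reached the median of the p300 list by −log10 q or by fold, where 6.5% and 6.93% of genes had one. The same 3 genes had p300 in the gene or within 1 kb, beside 20% of all genes. Within 50 kb 5 genes had p300 (those 3, Yap1 and Tead3), beside 44.2% of all genes and 62.8% of those with H3K4me3 at an end. The exact 95% interval of 5 in 10 ran from 18.7% to 81.3%. It is too wide to set the members apart from either share, and the genes were chosen rather than drawn at random. H3K4me3 in the gene or within 1 kb was found for 58.9% of all genes and within 50 kb for 75.5%, and for all 10 members in both counts. For Tead3 both p300 peaks were those at Fance and Rpl10a, and without it the count is 4.

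Of the 10 p300 peaks in or within 50 kb of these genes 9 overlapped H3K4me3 (exact 95% interval 55.5% to 99.7%), beside 85.5% of the whole p300 list, and the peak below Yap1 was the exception. In the other direction 9 of 58 H3K4me3 peaks, or 15.5% (7.35% to 27.4%), overlapped p300, beside 21.2% of the whole list. Of the 58 peaks 12 were at an end of a member, 20 inside and 26 outside. Their reads ran from 19 to 317 with a median of 71.

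**Figure D4:**
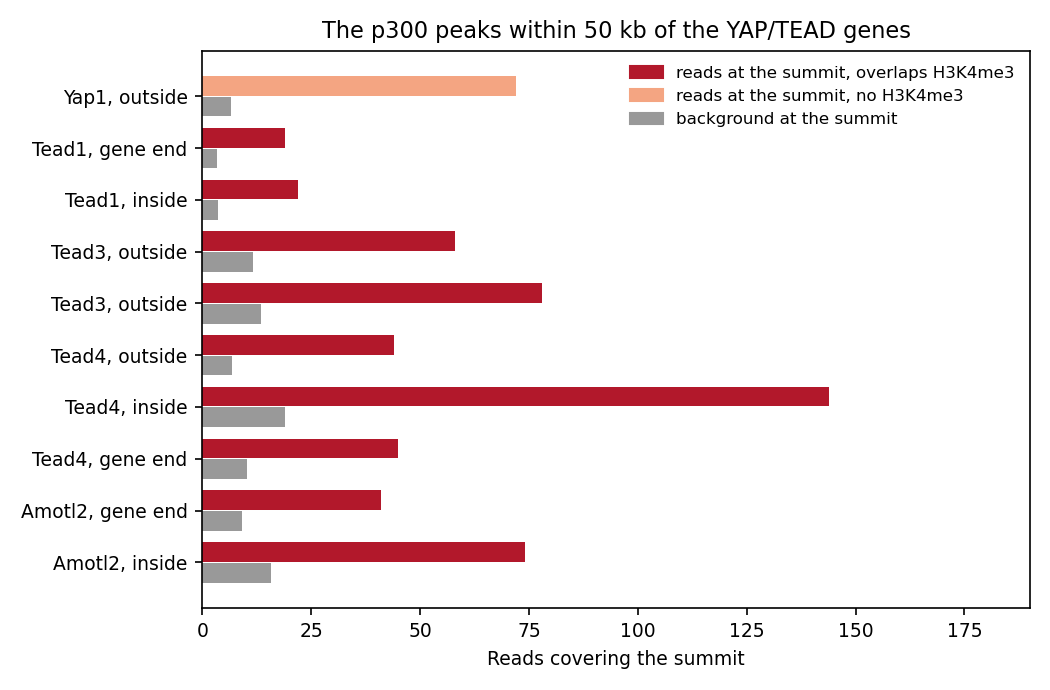
Reads at the summit (red with H3K4me3 overlap, light red without) and background at the summit (grey) for the 10 p300 peaks in or within 50 kb of the genes. The x axis counts reads covering the summit. The Tead4 peak inside the gene is the tallest at 144 reads, and the Tead1 peaks the lowest at 19 and 22.

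Other genes of the pathway were taken as 2 lists, and their counts are descriptions. Of 25 Hippo kinases and upstream regulators, 18 (72%) had H3K4me3 at an end and 22 (88%) in the gene or within 1 kb, beside 50.5% and 58.9% of all protein-coding genes. The 3 without were Fat4, an atypical cadherin gene, and the TEAD cofactor genes Vgll1 and Vgll2. The highest end folds were those of Stk3 (8.41) and Mob1a (8.15), which encode a kinase and an adaptor of the core cascade, Amot (7.54) and Frmd6 (7.51). At an end p300 was found for 5 of these genes (20%), and for 17 (68%) within 50 kb, beside 13.5% and 44.2% of all genes. Among genes with H3K4me3 at an end the shares were 26.5% and 62.8%. Gene length, which widens the windows that span a gene, was not matched for either list. By fold, the strongest p300 peak within 50 kb was near Limd1, a LATS-binding LIM protein gene, at 13.9. Limd1 had no p300 in the gene or within 1 kb. The same fold was the highest for p300 at an end of any protein-coding gene, so the peak cannot be credited to Limd1. Next came Amotl1 at 10.03, Vgll4, which encodes a TEAD-binding antagonist of YAP, at 9.28, and Taok3 at 8.35.

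Of 18 other target genes of YAP and TAZ, 11 (61.1%) had H3K4me3 at an end, near the 50.5% of all genes, and 15 (83.3%) in the gene or within 1 kb, beside 58.9%. Ankrd1, Igfbp3 and Foxf2 had none, and Ankrd1 is among the most used YAP target genes. The highest end folds were those of F3 (8.11), which encodes tissue factor, Gadd45a (7.22), Axl (7.07), a receptor kinase gene of the invasive melanoma state, and Fjx1 (6.997). Axl, F3 and Gadd45a had p300 at an end, or 16.7% of the list. This was beside 13.5% of all genes and 26.5% of those with H3K4me3 at an end. Within 50 kb 11 genes (61.1%) had it, beside 44.2% of all genes and 62.8% of those with H3K4me3 at an end. They were led by Dock5 at a fold of 10.1, F3 at 9.32, Arhgef17 at 8.47 and Myof at 8.14. Of these, Arhgef17 had no p300 in the gene or within 1 kb. The TEAD core was in a promoter window of 7 of 21 regulators and 4 of 12 targets with a listed window, or 33.3% each. This was beside 15.5% of all genes and 13.6% of those with H3K4me3 at an end. A gene with several listed starts has more windows for a match, and the lists were not counted by first start alone.

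**Figure D5:**
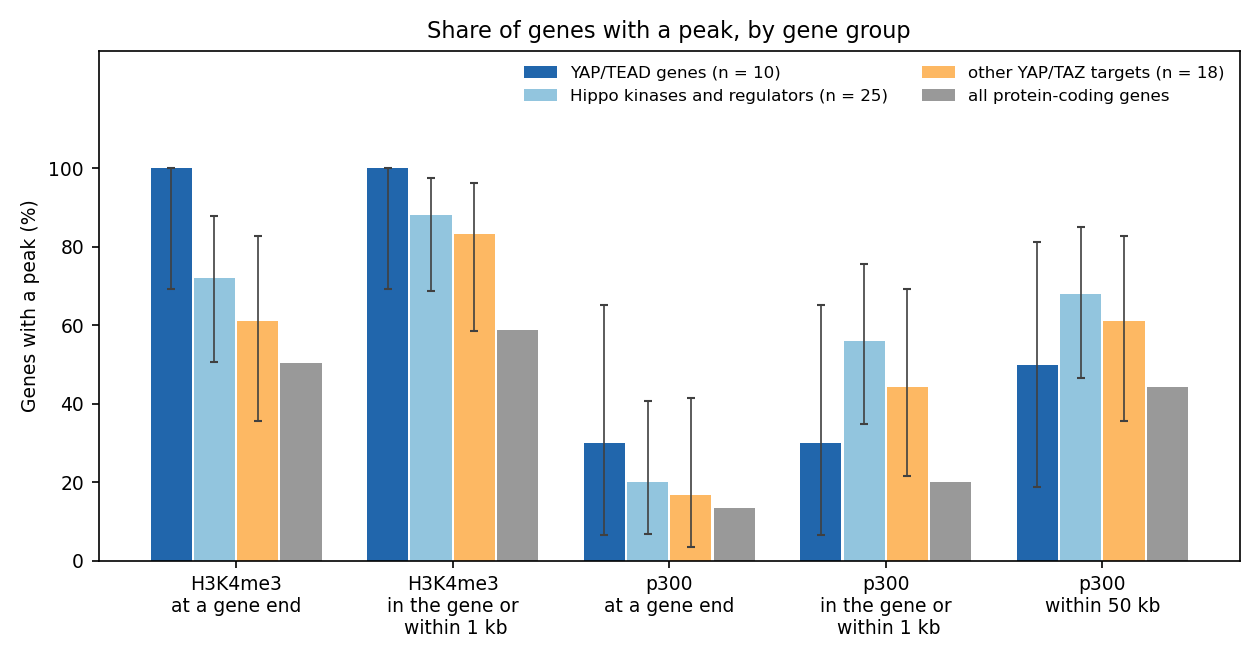
Share of genes (y, percent) with an H3K4me3 or p300 peak at a gene end, in the gene or within 1 kb, or within 50 kb. Bars are the 10 YAP/TEAD genes, 25 regulators, 18 other targets and all protein-coding genes, with exact 95% binomial intervals for the 3 lists. The YAP/TEAD genes reach 100% for H3K4me3, and for p300 within 50 kb their 50% lies beside 44.2% of all genes.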

How the data were processed

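The submitters' processing notes name Bowtie2 2.2.5, Picard 2.22.4, Trim Galore and deepTools, and list mm10 as the build. Program, control and pooling behind the peak calls were not given in the sources used here. Per antibody the authors deposited 1 peak list, in which every peak has a score, a fold enrichment (a ratio), a −log10 p and a −log10 q. These are the authors' own values and rank peaks only within a list.

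Reads and background at a summit were solved from the deposited fold and −log10 p. A whole number of reads k, with fold (k + 1)/(background + 1) and a Poisson tail, gave the −log10 p within 0.002 for 99.9% of H3K4me3 and 99.7% of p300 peaks, and for every member peak. The step was tested on simulated data.

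Genes came from RefSeq GRCm38.p6, the assembly that mm10 names on its primary chromosomes. A peak counted with at least 1 bp in the window. Both ends of a gene counted (1 kb), because the gene table has no strand. Python 3.11.15 with pandas 2.3.3 and scipy 1.17.1 was used. All 10 members are named. The lists name the exceptions of a majority and up to 4 genes of highest fold. Members, lists and motifs were chosen with earlier results of these data known. Samples were grouped by their titles, with 1 library per antibody.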

Additional observations from a re-analysis of the deposited data

How the results depend on the processing

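Of 38 alternatives to the counts over members, 31 stayed within 1.5 times the reported count. Among them were windows of 500 bp and 2 kb, distances of 25 and 100 kb, the summit in place of the overlap, and other definitions of overlap, of start and of promoter. The 7 that moved further mostly kept the stronger part of a list. Among peaks at or above the median fold, members with H3K4me3 at an end fell from 10 to 3 and in the gene from 10 to 4, and members with p300 at an end to 0, in the gene to 1 and within 50 kb to 2. Among peaks at or above the median −log10 q, p300 at an end was 0. With the listed start alone, p300 was at 1 of 7 genes with a start (Amotl2). Fewer peaks or genes enter each of these by construction. Both TEAD motif alternatives, chosen after seeing the data, gave 6 and 5 of 7 members. No paired analysis was possible because each antibody has 1 library, and no library could be left out. The smallest listed p300 summit held 14 reads, so weaker p300 sites would be missed here, and on a high background sites with more reads could be missed too.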
